A study of Mus musculus with 38 samples.

Results

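Leukocyte surface receptors and CD antigens formed a group of 83 of the 10547 gene targets measured in every segment. They were taken by their symbols alone, as the C-type lectin (Clec), Fc receptor (Fcgr and Fcer), Siglec and Ms4a families, the receptors for the colony-stimulating factors 1 and 2, and the genes with a plain Cd number. Clec4f, Cd24a and Cd74 were left out. By role the 83 genes were 16 C-type lectins, 14 myeloid and scavenger receptors, 12 other CD antigens, 8 Ms4a genes, 7 tetraspanins, 6 Fc receptors, 5 lymphocyte antigens, 5 costimulators and checkpoint ligands, 4 Siglecs, 4 colony-stimulating factor receptors and 2 complement regulators. Cd4, Cd8a and Cd274 were not analysed here.

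Fc receptors bind the constant part of antibodies, and most of the activating ones signal through the adaptor encoded by Fcer1g, which recruits the kinase Syk. C-type lectins and Siglecs recognise sugars on microbes and cells, and Csf1r is the receptor for Csf1 and Il34 on which tissue macrophages depend. In the liver, the resident macrophages or Kupffer cells are known for Cd5l, Clec1b and Cd163, whereas tetraspanins such as Cd9, Cd63 and Cd81 organise membrane microdomains in many cell types, epithelium included.

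Fixed liver sections were hybridised with probes of the mouse Whole Transcriptome Atlas, which were released by light and counted by sequencing, area by area, on the GeoMx platform. Within a region of interest (ROI), PanCK staining outlined bile duct epithelium and IBA1 staining outlined macrophages, and each outlined area was collected as a segment. Mice aged 6 to 8 weeks were wild type (WT) or Trail.mye, in which Lyz2-Cre deletes floxed Tnfsf10 in macrophages, monocytes and granulocytes, on a C57BL/6 background, and they were fed control diet (CON) or 0.1% DDC, a porphyrinogenic compound that injures bile ducts. Feeding ran for 21 days in rounds of 5 days on DDC and 3 days on chow, and ended on day 22. The WT segments were 3 PanCK, 2 periportal IBA1 and 1 parenchymal IBA1 on control diet, and 4, 4 and 2 on DDC. The Trail.mye segments were 4, 4 and 2 on control diet and 5, 5 and 2 on DDC, which gave 38 segments from 23 ROIs. No segment could be tied to an animal, so segments that share an animal make the p-values below too small.

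Total counts ran from 20319 to 836971 per segment. The lowest count in the table was 1, and 27.8% of the values of the 83 genes stood there against 27.2% over all genes. Periportal IBA1 segments were shallower in WT, with a median of 54.2% of the 83 genes at a count of 1 on control diet and 52.4% on DDC, against 3.01% and 0.00% in Trail.mye. In PanCK these medians were 72.3% and 40.4% in WT and 45.2% and 0.00% in Trail.mye. For 24 of the 83 genes (28.9%, against 19.3% of all genes) the median level was above 3 times the negative probe level, and for 47 it was below 2 times. The class labels were checked on marker genes: all 10 cholangiocyte markers were higher in PanCK and 9 of 10 macrophage markers were lower, Timd4 being the exception, with macrophage sums of 52.5 to 154 in PanCK, 294 to 998 in periportal IBA1 and 441 to 740 in parenchymal IBA1. Hepatocyte transcripts ran through all classes, with sums of 1044 to 7882 in PanCK and 1236 to 14592 in IBA1 segments. The Trail.mye control segments stood apart in the Y-linked target Gm21783, at 1.31 to 6.30 in those 10 segments against 14.0 to 126 in the other 28. The methods state that the mice were matched for age and gender, but no source gives the sex behind a segment. A difference in sex therefore cannot be told apart from diet in Trail.mye, nor from genotype on control diet. The same segments enter the pooled parenchymal diet test and the tests of class by diet, location by diet and diet by genotype, so this limit extends to those. No WT segment was that low, with 26.3 to 126 on control diet and 14.0 to 86.5 on DDC. In WT PanCK alone the diets did not overlap, at 98.0 to 126 and 39.4 to 86.5. Levels below are Q3-normalised signal, scaled so that every segment has the same upper quartile, and fold changes are from edgeR on the counts, with Benjamini-Hochberg adjusted p over all 10547 genes.

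The upstream sequences of 6 genes on which the class, location and diet results turn are shown first. RefSeq start sites were matched for 66 of the 83 genes on GRCm38.p6, and the 250 bases before the start are Cd5l at chr3:87357631-87357880 on the plus strand, Clec1b at chr6:129397047-129397296 on the plus strand, Cd163 at chr6:124304401-124304650 on the plus strand, Cd63 at chr10:128909095-128909344 on the plus strand, Fcgr3 at chr1:171059404-171059653 on the minus strand, Cd44 at chr2:102901666-102901915 on the minus strand. Fcgr3 has 2 start sites in the table, of which the first is printed. Capitals mark matches on either strand to AGAGGAAG (PU.1), TTGCNNAA (C/EBP), TGANTCA (AP-1) and GATAAG (the GATA factors).
Cd5l: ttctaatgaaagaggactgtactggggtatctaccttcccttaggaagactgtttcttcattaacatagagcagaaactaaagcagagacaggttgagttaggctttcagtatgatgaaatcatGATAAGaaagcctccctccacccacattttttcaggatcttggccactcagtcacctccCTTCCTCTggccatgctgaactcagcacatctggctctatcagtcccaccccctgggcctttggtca
Clec1b: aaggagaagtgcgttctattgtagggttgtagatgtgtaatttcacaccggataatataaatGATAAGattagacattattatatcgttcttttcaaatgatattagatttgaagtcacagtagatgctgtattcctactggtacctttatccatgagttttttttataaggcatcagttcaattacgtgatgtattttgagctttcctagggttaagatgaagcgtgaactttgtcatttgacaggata
Cd163: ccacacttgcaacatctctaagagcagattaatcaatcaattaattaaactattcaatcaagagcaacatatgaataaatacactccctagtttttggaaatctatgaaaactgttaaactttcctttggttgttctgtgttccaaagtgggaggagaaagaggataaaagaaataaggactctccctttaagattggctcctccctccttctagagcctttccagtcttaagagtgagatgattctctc
Cd63: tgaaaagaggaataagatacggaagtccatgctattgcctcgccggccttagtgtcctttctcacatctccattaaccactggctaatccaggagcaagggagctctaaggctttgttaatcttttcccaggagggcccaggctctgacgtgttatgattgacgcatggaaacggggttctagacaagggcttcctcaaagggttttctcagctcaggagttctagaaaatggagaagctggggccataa
Fcgr3: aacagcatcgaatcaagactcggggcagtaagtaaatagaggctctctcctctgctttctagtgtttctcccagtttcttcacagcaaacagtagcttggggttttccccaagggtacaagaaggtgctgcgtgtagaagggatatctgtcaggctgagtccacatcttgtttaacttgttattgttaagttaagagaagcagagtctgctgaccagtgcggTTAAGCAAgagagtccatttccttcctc
Cd44: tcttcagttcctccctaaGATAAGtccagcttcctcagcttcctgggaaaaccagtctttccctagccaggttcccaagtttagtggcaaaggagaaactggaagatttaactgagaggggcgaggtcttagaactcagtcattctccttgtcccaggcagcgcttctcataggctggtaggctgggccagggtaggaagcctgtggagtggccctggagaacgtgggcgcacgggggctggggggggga
Cd5l carried a PU.1 match 67 to 60 bases and a GATA match 126 to 121 bases before its start, Clec1b a GATA match at 188 to 183, Cd44 one at 232 to 227 and Fcgr3 a C/EBP match at 28 to 21. Cd163 and Cd63 held no match in this window. In the shares that follow, a gene counts if any of its start sites holds the letters. Fcgr3 thus counts for PU.1 by its start site that is not printed. The PU.1 letters were in 16.7% of the 66 genes against 4.27% of 27025 genes in the table, the C/EBP letters in 18.2% against 10.8%, the AP-1 letters in 10.6% against 7.82% and the GATA letters in 10.6% against 7.60%. These 4 of 18 motifs searched were marked after the counts were seen. Among the other 14, some of which overlap the PU.1 letters, the share in the 66 genes minus that in all genes ran from -8.27 to 9.59 percentage points.

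PanCK and periportal IBA1 segments of the same 15 ROIs were compared first, with the ROI as a block, to ask which of these receptors belong to the duct and which to the macrophage segments. Of the 83 genes, 49 were lower and 7 were higher in PanCK, and of all genes 10.2% and 7.67% were called in these directions. Their median log2 fold change was -0.65 against -0.03 for all genes. All 6 Fc receptors, all 4 Siglecs and all 4 colony-stimulating factor receptors were lower in PanCK, as were 10 of 14 myeloid and scavenger receptors, 9 of 16 C-type lectins, 6 of 8 Ms4a genes, 4 of 12 other CD antigens, 3 of 5 lymphocyte antigens, 2 of 7 tetraspanins and 1 of 5 costimulators. The higher genes were 4 tetraspanins, Cd14, Cd44 and Cd276. Fewer cells of a type and less RNA per cell cannot be told apart in such segments. Markers of other cell types were also lower in PanCK in these ROIs, by log2 fold change. Among them were Col1a1 (-1.88) and Dcn (-1.65) of fibroblasts, Stab1 (-1.75) and Eng (-1.09) of endothelium and Alb (-0.70) of hepatocytes. So were Igkc (-2.05) and Ighm (-0.87) of T and B cells, and Laptm5 (-2.21) and Ptprc (-1.46) of leukocytes in general. Des of fibroblasts, Kdr, Pecam1, Oit3 and Ptprb of endothelium and Nkg7 of T and B cells were not called. Of the neutrophil markers, S100a8, S100a9, Ly6g and Retnlg were not called either. The part of these cells in the class results was not tested.

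Among the Fc receptors, Fcgr3, which binds IgG complexes, lay between 2.63 and 18.9 with a median of 9.80 in PanCK and between 10.5 and 78.0 with a median of 35.0 in IBA1. It was lower in PanCK in 15 of 15 ROIs, with a log2 fold change of -1.93 ± 0.17 (SE, adjusted p = 5.4e-15). Fcer1g, the common adaptor, had medians of 9.80 and 26.3 and was lower in all 15 ROIs (-1.71 ± 0.16). The inhibitory receptor Fcgr2b was lower in 14 of 15 (-1.88 ± 0.17), Fcgr4 in 14 (-1.55 ± 0.18) and Fcgr1 in 13 (-1.11 ± 0.18), and the change was smallest for Fcgrt, the neonatal Fc receptor that epithelium also expresses (-0.79 ± 0.16). Fcgr2b, Fcgr3 and Fcgr4, like Clec4a1 to Clec4a3, the Ms4a6 genes, Csf2rb and Csf2rb2, and Cd209a to Cd209c, are close paralogs whose probes could share transcripts.

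Csf1r lay between 3.50 and 35.3 with a median of 21.0 in PanCK and between 31.5 and 137 with a median of 68.3 in IBA1, and it was lower in PanCK in 15 of 15 ROIs (-1.72 ± 0.17, adjusted p = 8.4e-13). The lysosomal antigen Cd68 had medians of 8.08 and 25.6 (-1.94 ± 0.17, lower in 15 of 15), and Cd53, a leukocyte tetraspanin, 7.00 and 21.0 (-1.57 ± 0.18, lower in 15 of 15). The largest difference was that of Ms4a4a (-2.13 ± 0.19, medians 4.20 and 15.8), which stood at a count of 1 in 7 PanCK and 2 IBA1 segments. Siglec1 (-1.69 ± 0.19), Cd5l (-1.80 ± 0.21), Clec7a (-1.66 ± 0.18), which binds fungal beta-glucan, and Cd52 (-1.66 ± 0.17) were each lower in 13 or 14 ROIs.

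Cd9 had the lowest adjusted p of the 7 genes higher in PanCK. It lay between 14.0 and 87.7 with a median of 59.5 in PanCK and between 5.25 and 37.1 with a median of 21.0 in IBA1, and was higher in PanCK in 15 of 15 ROIs (1.18 ± 0.16, adjusted p = 1.2e-08). Cd14, the co-receptor for bacterial lipopolysaccharide, was higher in 12 of 15 (1.30 ± 0.20), with medians of 32.1 and 10.5. Cd276, a checkpoint ligand, was higher in 13 of 15 (0.81 ± 0.17), and the laminin receptor partner Cd151 in 12 of 15 (0.88 ± 0.17). Cd44, a receptor for hyaluronan and osteopontin, was higher in 9 ROIs and lower in 6 (1.01 ± 0.20), which is taken up with diet below. Cd82 (0.62 ± 0.17) and Cd81 (0.46 ± 0.17, adjusted p = 0.0498) were higher in 9 ROIs each. Cd81 lost its call in 9 of 15 fits that left out an ROI, and Cd209a (-0.54 ± 0.18) in 10 of 15. Of the antigens that did not pass, Cd47, the ligand of Sirpa, had 0.40 ± 0.16 (adjusted p = 0.073) and the T cell antigen Cd3e -0.13 ± 0.17 (adjusted p = 0.80), with medians of 4.94 and 5.25.

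**Figure D1:**
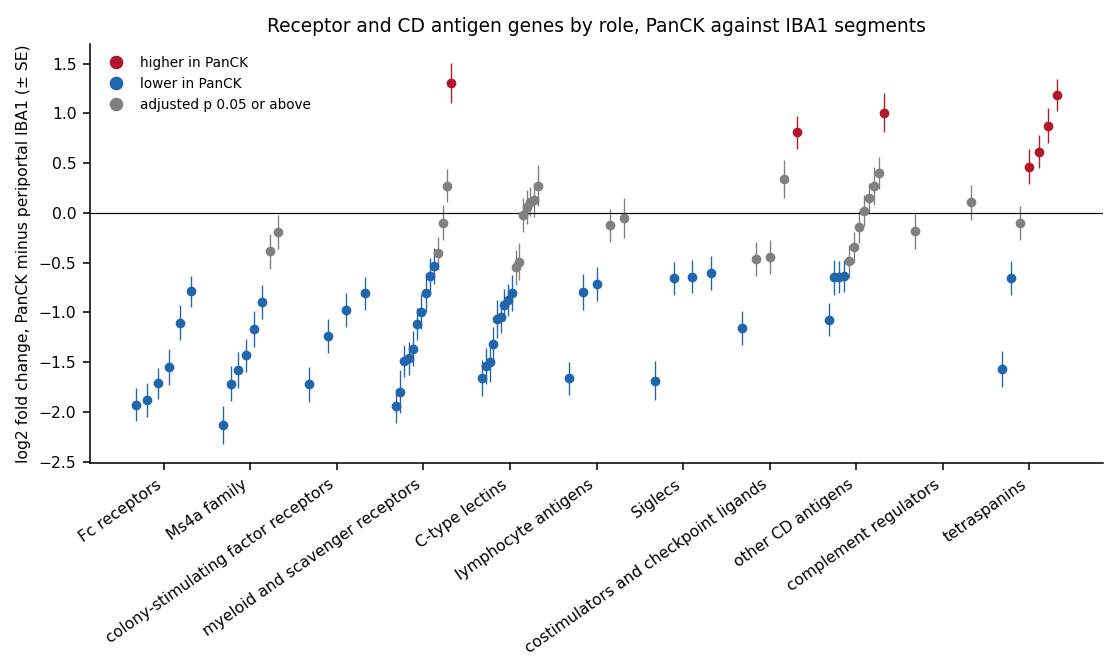
Log2 fold change, PanCK minus periportal IBA1 (y axis, ± SE, 15 ROIs), of each of the 83 genes, grouped by role (x axis) and coloured by call at adjusted p under 0.05. All Fc receptors, Siglecs and colony-stimulating factor receptors lie below 0, and 4 of the 7 higher genes are tetraspanins.

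Of 37 signalling partners and ligands of these receptors listed, 25 were measured. Of these 13 were lower and 1 was higher in PanCK, against the 10.2% and 7.67% of all genes given above, and 11 did not pass. Their median log2 fold change was -0.52. Tyrobp, the adaptor of many activating myeloid receptors, differed by -2.18 ± 0.17, Syk by -1.34 ± 0.19, the adaptor Lcp2 by -1.30 ± 0.18 and Sirpa, the receptor for Cd47, by -1.15 ± 0.15. The higher gene was Spp1 (3.63 ± 0.24), which encodes osteopontin, a ligand of Cd44 that bile duct cells secrete.

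Periportal and parenchymal IBA1 segments were compared next, to ask whether the macrophages beside the ducts carry other receptors than those within the lobule. Over all 15 periportal and 7 parenchymal segments 3 of the 83 genes were lower and 3 were higher periportally, against 1.35% and 0.882% of all genes. The lower genes were Cd5l (-1.88 ± 0.28, adjusted p = 3.1e-06), Clec1b (-1.32 ± 0.25, 0.00048) and Cd1d1 (-1.02 ± 0.22, 0.0025), which presents lipids to natural killer T cells. Cd5l and Clec1b are known from Kupffer cells, but Cd163, also named for them above, was not called. The higher genes were all Ms4a genes, Ms4a4a (1.33 ± 0.34, 0.016), Ms4a6b (1.09 ± 0.28, 0.015) and Ms4a7 (1.17 ± 0.32, 0.040), while Ms4a6c had 0.76 ± 0.26 (adjusted p = 0.14). Without WT DDC parenchymal ROI 012 or Trail.mye DDC parenchymal ROI 038 only the 3 lower genes were called, and Ms4a7 lost its call in 7 of 22 fits that left out a segment.

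The locations were also compared within each diet, which was chosen after the data were seen. On control diet (6 periportal, 3 parenchymal segments) edgeR called none of the 83 genes, against 0.104% of all genes (6 higher and 5 lower, and 4 and 5 with TMM scaling). An unadjusted p under 0.05 was reached by 9 of the 83 genes and by 619 of all 10547. DESeq2 also called none. On DDC (9 and 4 segments) edgeR called 7, with 4 higher against 1.06% of all genes and 3 lower against 2.08%. Cd5l was at 68.3 in the parenchymal WT control segment and at 104 and 116 in the Trail.mye ones, and at 109 and 164 in WT and 98.0 and 155 in Trail.mye on DDC. Periportally it was at 99.8 and 78.8 in WT and at 61.3, 64.3, 93.2 and 65.7 in Trail.mye on control diet. On DDC the periportal values were 10.5, 36.8, 5.25 and 31.5 in WT and 13.0, 13.7, 8.53, 9.91 and 24.8 in Trail.mye. Thus every periportal DDC segment lay below every parenchymal one (-3.01 ± 0.30, adjusted p = 1.3e-11), and the difference between locations changed with diet by -2.61 ± 0.45 (adjusted p = 0.00098). Cd5l was the only one of the 83 genes for which that change was called, against 0.0474% of all genes in this direction and 0.0379% in the other (4 higher and 5 lower, and 2 and 5 with TMM), and it was called in all fits that left out a segment.

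Clec1b, the receptor for podoplanin, ran from 3.50 to 15.8 periportally and from 17.5 to 39.4 parenchymally on DDC, without overlap (-2.34 ± 0.37, adjusted p = 8.2e-06). Its change with diet was -1.69 ± 0.46 (adjusted p = 0.17). Cd1d1 ran from 5.25 to 12.8 and from 24.5 to 42.0 (-1.68 ± 0.30). In the other direction, Ms4a6c ran from 15.8 to 33.8 periportally and from 3.00 to 13.1 parenchymally (1.66 ± 0.38, adjusted p = 0.0033). Ms4a4a (1.88 ± 0.43), Ms4a6b (1.86 ± 0.46) and Cd34 (1.87 ± 0.49, adjusted p = 0.040), an antigen of endothelium and stroma, were also higher. Without WT DDC parenchymal ROI 012 only 3 of the 7 were called in all, and without Trail.mye DDC parenchymal ROI 038 only 4. Marker sums of other cell types moved with location on DDC. Fibroblast sums were 634 to 1558 periportally against 126 to 252 parenchymally, cholangiocyte sums 117 to 378 against 52.5 to 126, and hepatocyte sums 1236 to 5194 against 4149 to 14592. General leukocyte sums were 84.0 to 192 against 56.0 to 105, and T and B cell sums 31.5 to 764 against 12.0 to 42.0. Macrophage sums were 294 to 840 periportally and 441 to 735 parenchymally. The part of these in the location results was not tested.

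**Figure D2:**
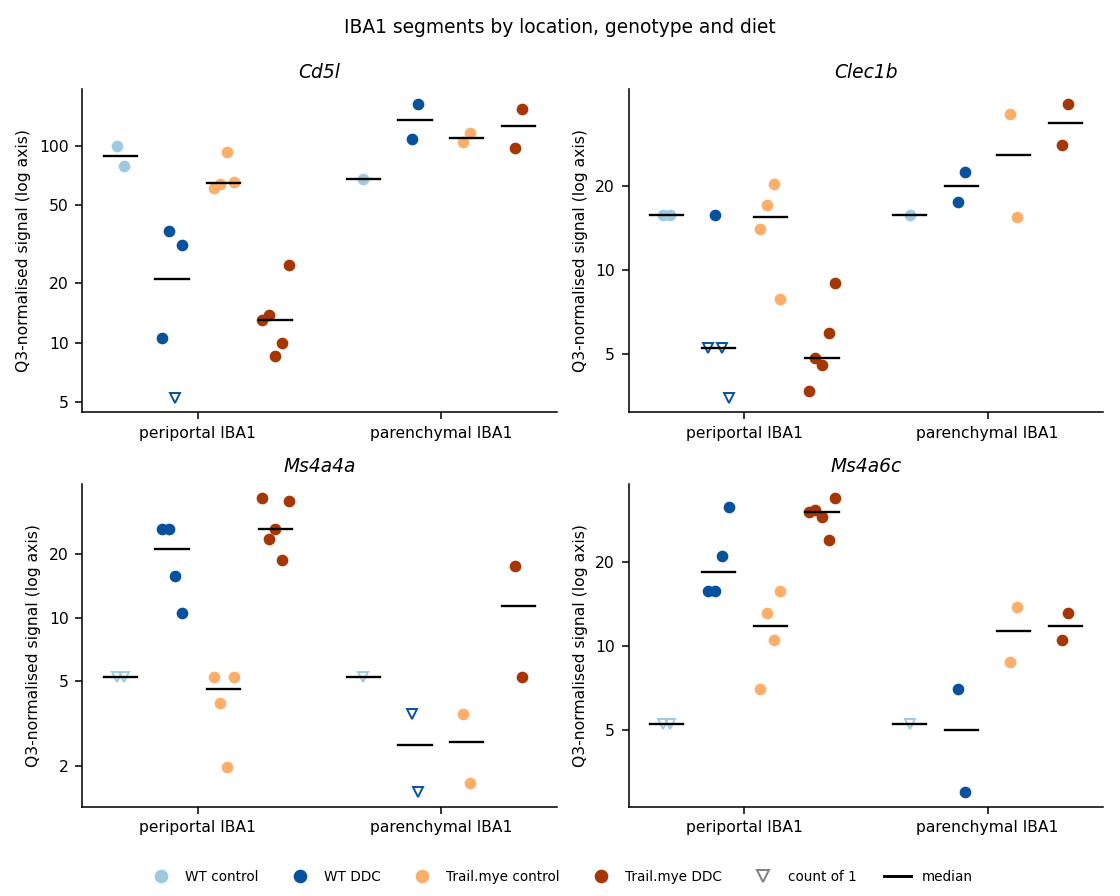
Q3-normalised signal (y axis, log scale) of Cd5l, Clec1b, Ms4a4a and Ms4a6c in each periportal and parenchymal IBA1 segment, coloured by genotype and diet. Points are segments, open triangles stand at a count of 1 and bars are medians. Periportal Cd5l lies at 5.25 to 36.8 on DDC and at 61.3 to 99.8 on control diet, while the parenchymal values run from 68.3 to 164.

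The effect of DDC on the receptors of periportal macrophage segments was read in each genotype. In Trail.mye (5 DDC, 4 control segments) 16 of the 83 genes rose and 6 fell, against 4.20% and 5.18% of all genes, and the median log2 fold change was 0.28 against 0.07 over all genes. By role, 4 of 6 Fc receptors, 3 of 8 Ms4a genes, 3 of 14 myeloid and scavenger receptors, 2 of 16 C-type lectins, 2 of 7 tetraspanins and 2 of 12 other CD antigens rose. The 6 that fell were Cd5l, Cd163, Clec1b, Siglec1, Cd1d1 and the complement regulator Cd55. Among the 22, the segments of the 2 diets overlapped for Clec1b, Fcgr2b and Cd84 only. The 22 were called on these same segments, and the share of all genes without overlap was not counted. Other markers moved with diet in the same segments: hepatocyte sums had medians of 10550 on control diet and 3109 on DDC, the fibroblast sums 143 and 967, the cholangiocyte sums 43.7 and 201 and the general leukocyte sums 93.9 and 142. Macrophage marker sums were 502 to 739 on control diet and 373 to 840 on DDC. The part of these in the results was not tested, and the Y-linked difference stated above applies here.

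Of the genes that fell, Cd5l, Cd163 and Clec1b are known from Kupffer cells. Cd5l, a secreted scavenger receptor protein, fell from between 61.3 and 93.2 to between 8.53 and 24.8 (-2.40 ± 0.30, adjusted p = 2.6e-08). Cd163, the receptor for haemoglobin and haptoglobin, stood at 14.0, 34.1, 9.19 and 18.4 on control diet and at 1.85, 4.85, 1.97, 5.75 and 2.25 on DDC (-2.12 ± 0.31, adjusted p = 9.3e-07). The negative probe level of these DDC segments was 2.26, 2.62, 1.45, 5.51 and 1.69 in the same order. Cd163 on DDC thus lay near background, and the size of its fall is uncertain. Clec1b stood at 14.0, 17.1, 20.4 and 7.88 and at 3.71, 4.85, 4.60, 5.95 and 9.00 (-1.46 ± 0.26, adjusted p = 4.2e-05), so that the lowest control segment lay below the highest DDC segment. Its value of 5.95, in ROI 035, was also near the negative probe level. Siglec1, which binds sialic acid, fell by 1.16 on the log2 scale (adjusted p = 0.0015), Cd1d1 by 0.79 and Cd55 by 1.09.

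Ms4a4a rose most. It stood at 5.25, 3.94, 1.97 and 5.25 on control diet and at 36.5, 23.4, 26.3, 18.6 and 35.3 on DDC (2.86 ± 0.36, adjusted p = 2.6e-08). Cd63, a tetraspanin of lysosomes and exosomes, stood at 5.25, 13.1, 15.8 and 10.5 and at 56.2, 60.6, 80.1, 41.4 and 75.8 (2.38 ± 0.32, adjusted p = 2.1e-07). Cd9 stood at 12.3, 9.19, 11.2 and 5.25 and at 37.1, 35.6, 36.1, 18.6 and 33.8 (1.70 ± 0.31, adjusted p = 4.3e-05). Each of the DDC segments was above each of the control segments for these 3 genes. Ms4a6c (7.00, 13.1, 10.5 and 15.8 against 30.3, 30.7, 28.9, 24.0 and 33.8) rose by 1.31 ± 0.27, and Ms4a7 by 1.08 ± 0.27.

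The Fc receptors that rose were Fcgr3, Fcgr2b, Fcgr1 and the adaptor Fcer1g. Fcgr3 stood at 29.8, 19.7, 22.3 and 17.1 on control diet and at 36.5, 39.6, 67.6, 36.9 and 78.0 on DDC (1.22 ± 0.31, adjusted p = 0.0046). Fcer1g rose by 0.99 ± 0.27, Fcgr2b by 1.11 ± 0.31 and Fcgr1 by 0.86 ± 0.28 (adjusted p = 0.040). With limma on log2 signal none of these 4 was called, and Fcgr1 lost its call in 4 of 5 alternatives. The lectins Clec7a (1.48 ± 0.31) and Clec4a1 (1.09 ± 0.29), the myeloid antigens Cd84 (1.07 ± 0.30) and Cd300c2 (0.84 ± 0.26) and Cd93 (1.38 ± 0.29), which endothelium also expresses, rose too. Cd34 (1.28 ± 0.31) and Cd248 (1.12 ± 0.31), antigens known from stroma, rose beside the fibroblast markers given above. Of the 22, 9 were called in every alternative that tested them and in every fit that left out a segment, namely Cd5l, Cd163, Clec1b, Cd63, Cd9, Cd93, Clec7a, Ms4a4a and Ms4a6c. With counts of 1 set to 0 the number called fell to 14, and with limma on log2 signal to 13.

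Other myeloid antigens, namely Csf1r, Cd68, Cd36 and Cd14, did not pass the test in these segments, unlike Fcgr1, Fcgr3, Fcer1g and Ms4a7 above. Csf1r ran from 38.1 to 102 on control diet and from 41.2 to 127 on DDC. Cd68 had a log2 fold change of 0.71 ± 0.32 (adjusted p = 0.18), Cd36, a receptor for oxidised lipid, 0.74 ± 0.29 (0.10) and Cd14 0.63 ± 0.32 (0.25). None of the 4 Csf receptors, 5 costimulators or 5 lymphocyte antigens was called. Of the 25 signalling partners and ligands 5 rose and none fell, with Spp1 at 4.18 ± 0.44, the kinase subunit Pik3cg at 1.58 ± 0.38, the Src-family kinase Fgr at 1.47 ± 0.38, the adaptor Lat2 at 1.18 ± 0.31 and Thbs1, a ligand of Cd36 and Cd47, at 0.98 ± 0.30.

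In WT (4 DDC, 2 control segments, of 20319 to 35208 counts) 1 gene rose, against 0.142% of all genes, and 2 fell, against 1.04%. Marker sums moved with diet here too. Macrophage sums were 583 to 998 on control diet and 294 to 473 on DDC, without overlap, and hepatocyte sums were 8230 to 11985 and 1576 to 5194. Fibroblast sums were 63.0 to 73.5 and 809 to 1292, cholangiocyte sums 57.8 in both control segments and 168 to 378 on DDC, and general leukocyte sums 73.5 to 94.5 and 84.0 to 123. In the WT control segments most fibroblast and cholangiocyte markers stood at a count of 1, worth 5.25 on this scale, so these sums lie near the lowest possible. Their part in the WT results was not tested. Cd63 stood at 10.5 and 5.25 on control diet and at 68.3, 42.0, 73.5 and 52.5 on DDC (2.88 ± 0.73, adjusted p = 0.025). Cd5l, whose values are given above, fell by 2.02 ± 0.52 (adjusted p = 0.029), and the adhesion antigen Cd99 fell from 121 and 289 to 47.3, 89.3, 31.5 and 49.0 (-1.92 ± 0.47, adjusted p = 0.018). All 3 calls were lost with TMM scaling, without WT DDC ROI 007 and without WT DDC ROI 011, and none of the 3 was called without WT control ROI 005, while only Cd99 was without WT control ROI 003. Of the other genes called in Trail.mye, Cd9 had 1.51 ± 0.71, Cd163 -1.63 ± 0.85 and Siglec1 -2.27 ± 0.70 in WT, none called. Ms4a4a and Ms4a6c were at a count of 1 in both WT control segments and were not called. On DDC Ms4a4a stood at 26.3, 26.3, 15.8 and 10.5, at least 1.25-fold higher against a floor of 3 counts per segment, and Ms4a6c at 15.8, 15.8, 21.0 and 31.5, at least 1.33-fold higher. Cd163 stood at 15.8 and 21.0 and, with 3 of the 4 DDC segments at a count of 1, at 5.25, 5.25, 10.5 and 3.50. Fcgr3 had -0.19 ± 0.64. The difference in the diet effect between genotypes was called for none of the 83 genes, against 0.0569% of all genes. An unadjusted p under 0.05 was reached by 3 of the 83 and by 203 of all 10547. The largest, that of Cd99, was 1.75 ± 0.57 (adjusted p = 1.0). DESeq2 also called none.

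**Figure D3:**
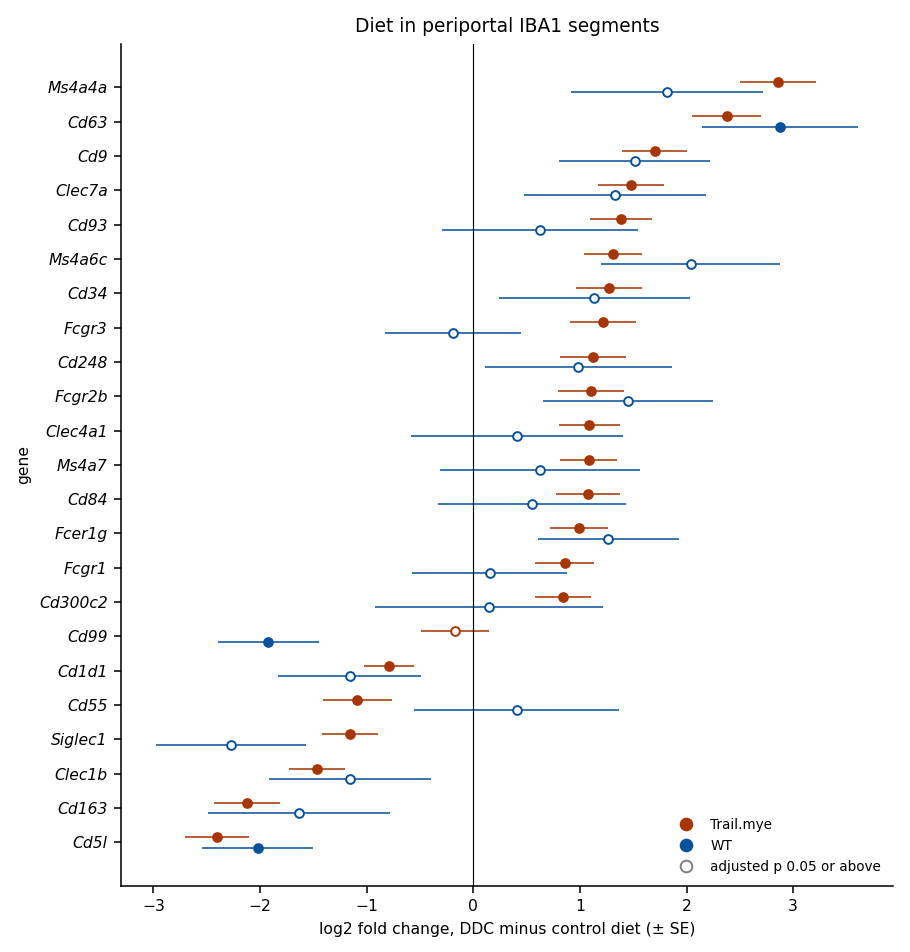
Log2 fold change, DDC minus control diet (x axis, ± SE), in periportal IBA1 segments of Trail.mye (5 and 4 segments) and WT (4 and 2) for the 23 genes called in either genotype. Filled points passed at adjusted p under 0.05. The WT errors are the wider ones, and Cd5l and Cd63 passed in both. For genes at a count of 1 in both WT control segments, Ms4a4a and Ms4a6c among them, the WT point depends on the prior count of the fit.

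In the 7 parenchymal IBA1 segments, with both genotypes pooled, 2 genes rose on DDC, against 0.294% of all genes, and none of the 83 fell, against 0.465% (31 higher and 49 lower in all, and 34 and 25 with TMM). Cd63 stood at 10.5 in WT and at 5.25 and 7.74 in Trail.mye on control diet, and at 52.5 and 57.0 in WT and 38.5 and 39.4 in Trail.mye on DDC (2.52 ± 0.40, adjusted p = 0.00067). Cd36 stood at 21.0, 11.7 and 9.40 and at 21.0, 46.5, 38.5 and 42.0 (1.72 ± 0.40, adjusted p = 0.036), and lost its call in 5 of 7 fits that left out a segment. Those were the fits without WT DDC ROI 012, Trail.mye control ROI 030 or ROI 031 and Trail.mye DDC ROI 037 or ROI 038. Cd5l had 0.45 (adjusted p = 0.96) and Cd9 1.33 ± 0.40 (0.16). Spp1 was the only signalling partner called (3.32 ± 0.62).

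The same diet comparison in PanCK segments gave other genes. In Trail.mye (5 DDC, 4 control) 4 of the 83 genes rose, against 1.43% of all genes, and none fell, against 0.664% (151 higher and 70 lower in all, and 59 and 108 with TMM). Cd44 stood at 3.50, 5.25, 15.8 and 4.20 on control diet and at 42.8, 37.1, 51.2, 31.9 and 59.2 on DDC (2.60 ± 0.43, adjusted p = 7.2e-06). Cd14 stood at 3.50, 15.8, 5.25 and 18.9 and at 69.9, 37.1, 42.0, 26.3 and 39.9 (1.87 ± 0.41, adjusted p = 0.0020). Cd9 stood at 14.0, 31.5, 26.3 and 29.4 and at 74.7, 59.5, 87.7, 39.0 and 81.9 (1.39 ± 0.35, adjusted p = 0.0093). Fcgr2b was at a count of 1 in all 4 control segments and at 12.1, 9.80, 17.4, 8.80 and 10.5 on DDC (adjusted p = 0.023), which against the same floor is at least 1.44-fold higher. The diets did not overlap for these 4 genes. As they were called on the same segments, that adds no separate evidence, and the share of all genes without overlap was not counted. Cd9 and Fcgr2b lost their calls with TMM, with DESeq2 and without Trail.mye control ROI 026, and Fcgr2b in 4 more of the 16 fits that left out a segment. In these PanCK segments macrophage marker sums were 52.5 to 102 on control diet and 102 to 154 on DDC. Cholangiocyte sums had medians of 621 and 1373 (571 to 790 and 540 to 1622), hepatocyte sums 4194 and 2262 and fibroblast sums 120 and 177 (99.8 to 143 and 161 to 359). Their part in the results was not tested. Thbs1 (1.98 ± 0.45) was the only signalling partner that rose.

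In WT PanCK segments (4 DDC, 3 control) 2 genes rose, against 0.493% of all genes, and 1 fell, against 0.417% (52 higher and 44 lower in all, and 78 and 31 with TMM). Cd44 was at a count of 1 in all 3 control segments and at 44.5, 31.5, 36.8 and 33.6 on DDC (adjusted p = 0.0082), at least 2.61-fold higher against the same floor. Cd14 stood at 7.00, 5.25 and 15.8 and at 32.1, 39.9, 42.0 and 81.9 (2.42 ± 0.61, adjusted p = 0.019). Cd9 stood at 31.5, 21.0 and 26.3 and at 66.7, 81.9, 78.8 and 71.4 (1.46 ± 0.46, adjusted p = 0.13). Clec2j, of the Clec2 lectins, stood at 77.0, 15.8 and 73.5 and at 29.7, 8.40, 7.88 and 8.40 (-2.14 ± 0.40, adjusted p = 0.00024). Without WT control ROI 001 none of these was called, and without WT control ROI 003 only Clec2j was. Marker sums did not overlap between the diets for cholangiocytes (644 to 1003 on control diet, 1626 to 2198 on DDC), macrophages (52.5 to 68.3 and 98.7 to 131) or fibroblasts (78.8 to 89.3 and 239 to 445). The macrophage markers C1qb, Aif1, Vsig4, Marco, Timd4 and Clec4f stood at a count of 1 in all 3 control segments. Hepatocyte sums were 3020 to 4743 and 1704 to 3107. Their part in the results was not tested. Cd63 had 0.85 ± 0.43 (adjusted p = 0.79) in WT and 0.86 ± 0.35 (0.26) in Trail.mye.

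Whether diet moved PanCK and IBA1 segments by different amounts was tested over the 15 paired ROIs, a test added after the data were seen that shares its segments with the comparisons above. The PanCK minus IBA1 difference changed for 4 of the 83 genes, 3 toward PanCK against 1.73% of all genes and 1 toward IBA1 against 0.417% (182 and 44 in all, and 86 and 45 with TMM). Cd44 moved toward PanCK by 2.57 ± 0.43 (adjusted p = 4.5e-05). In IBA1 segments it stood at 10.5 and 10.5 on control diet and at 5.25, 10.5, 10.5 and 17.5 on DDC in WT, and at 14.0, 19.7, 17.7 and 14.4 and at 12.4, 17.8, 18.4, 13.3 and 19.5 in Trail.mye. Within ROIs, Cd44 was lower in PanCK than in IBA1 in 6 of 6 control ROIs and higher in 9 of 9 DDC ROIs. Cd5l (2.12 ± 0.43, adjusted p = 0.0015) and Cd81 (1.44 ± 0.32, 0.0052) had changes of the same sign. Cd5l stayed lower in PanCK, in 6 of 6 control and 8 of 9 DDC ROIs, and fell in periportal IBA1 as given above. Its PanCK counts were only 1 to 4 in WT and in Trail.mye control segments. Cd81 stood at 35.0, 21.0 and 26.3 and at 56.8, 63.0, 34.1 and 42.0 in WT PanCK, but at 36.8 and 42.0 and at 5.25, 15.8, 15.8 and 17.5 in WT periportal IBA1. Like Cd44, Cd81 was lower in PanCK in 6 of 6 control ROIs and higher in 9 of 9 DDC ROIs. Cd63 moved toward IBA1 (-1.57 ± 0.37, adjusted p = 0.0079), being higher in PanCK in 6 of 6 control ROIs and in 2 of 9 DDC ROIs. Cd14 (1.18, adjusted p = 0.33) and Cd9 (-0.30, adjusted p = 0.91) did not pass. Spp1 moved toward IBA1 (-3.50 ± 0.34).

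**Figure D4:**
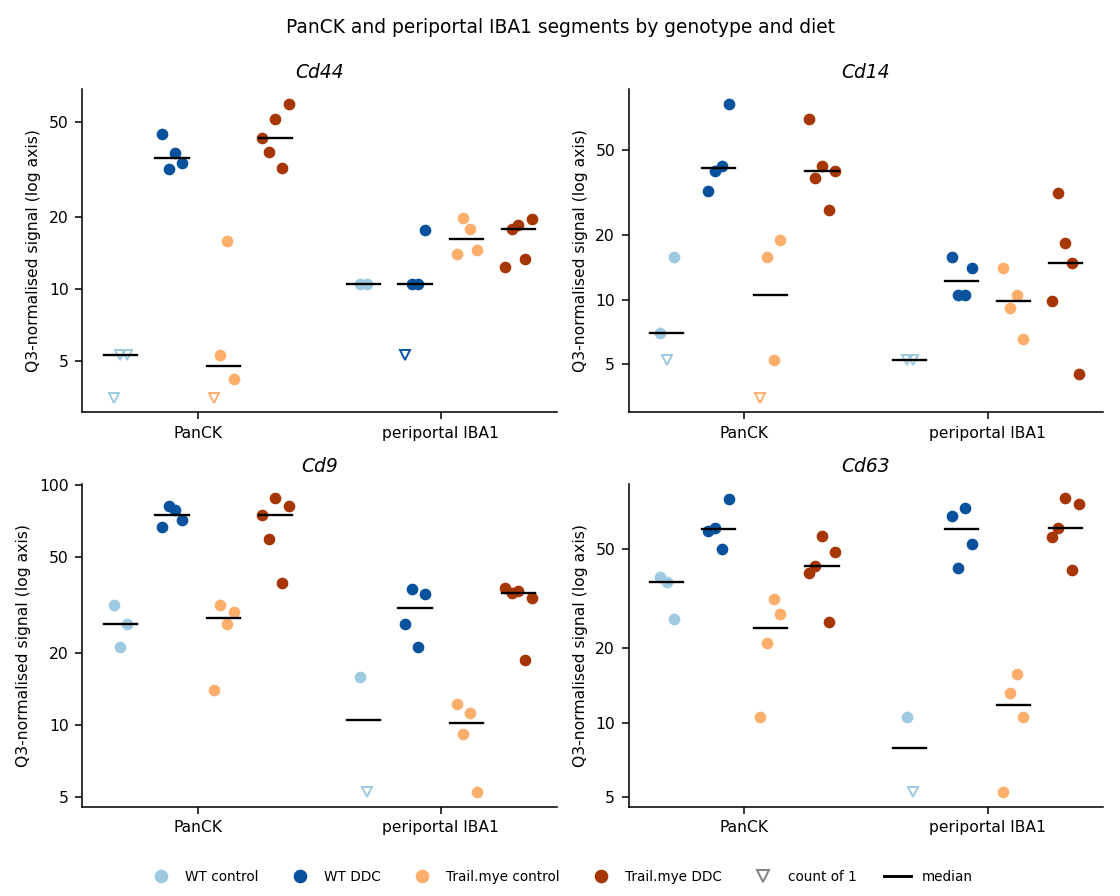
Q3-normalised signal (y axis, log scale) of Cd44, Cd14, Cd9 and Cd63 in each PanCK and periportal IBA1 segment, coloured by genotype and diet. Points are segments, open triangles stand at a count of 1 and bars are medians. On DDC Cd44 lies at 31.5 to 59.2 in PanCK and at 5.25 to 19.5 in IBA1, while Cd63 on DDC lies at 25.3 to 79.8 in PanCK and at 41.4 to 80.1 in IBA1.

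Genotype was compared within diet and class, to ask whether loss of myeloid TRAIL, the death ligand encoded by Tnfsf10, changed these receptors. In PanCK segments on control diet Clec2j was lower in Trail.mye, against 0.152% of all genes lower, and none of the 83 was higher, against 0.0664%. It stood at 3.50, 10.5, 2.63 and 8.40 in Trail.mye and at 77.0, 15.8 and 73.5 in WT (-3.12 ± 0.47, adjusted p = 7.4e-06), without overlap, and was called in every alternative. On DDC it stood at 5.25, 4.20, 8.22, 9.19 and 6.30 in Trail.mye (-0.85 ± 0.37, adjusted p = 0.47), and the difference between the diet effects was 2.27 ± 0.60 (adjusted p = 0.15). The Y-linked target Gm21783 separates the same control groups, at 98.0 to 126 in WT PanCK and at 2.63 to 6.30 in Trail.mye, so sex cannot be told apart from genotype here. This comparison and the WT diet comparison share the 3 WT control segments.

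The other genotype comparisons called none of the 83 genes by edgeR or by DESeq2. In PanCK on DDC, 7 of the 83 genes had an unadjusted p under 0.05, against 974 of all 10547. Adjusted calls were 0.152% of all genes (10 higher and 6 lower, and 1 and 16 with TMM). When Trail.mye DDC ROI 035 was left out, 1 of the 83 was called. In periportal IBA1, 1 of the 83 genes on control diet and 5 on DDC had an unadjusted p under 0.05, against 279 and 251 of all 10547. Adjusted calls were 0.199% and 0.019% of all genes. The difference in the diet effect between genotypes in PanCK had 1 of the 83 genes, Clec2j, at an unadjusted p under 0.05, against 406 of all 10547. Adjusted calls were 0.114% of all genes (11 and 1, and 5 and 4 with TMM). This test called 1 of the 83 without WT control ROI 003 or WT DDC ROI 007.

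**Figure D5:**
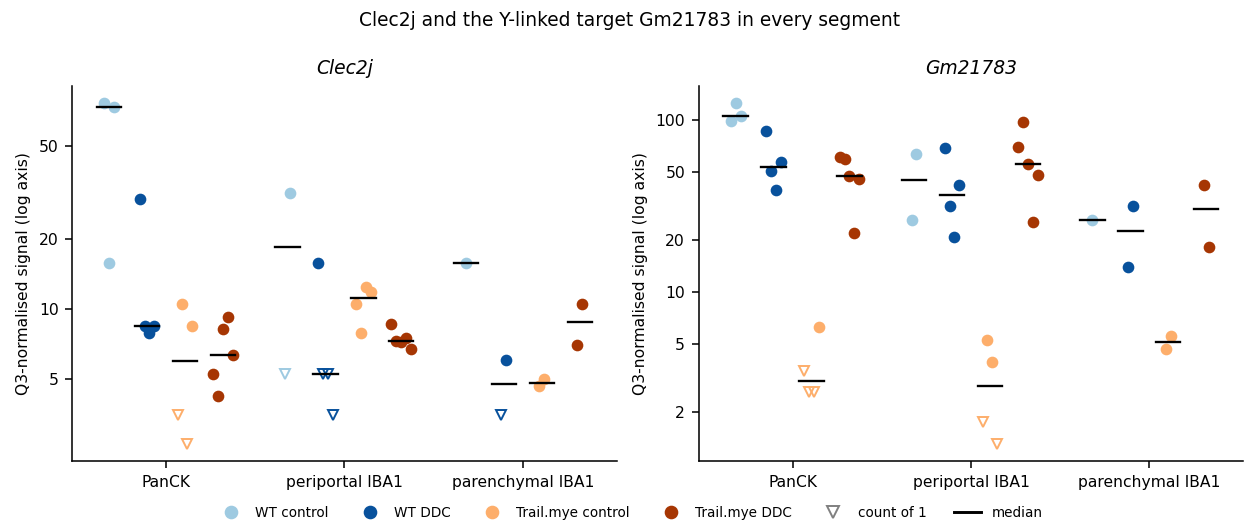
Q3-normalised signal (y axis, log scale) of Clec2j and of the Y-linked target Gm21783 in all 38 segments, by class and coloured by genotype and diet. Points are segments, open triangles stand at a count of 1 and bars are medians. Clec2j is highest in WT control PanCK (15.8 to 77.0), and Gm21783 is at 1.31 to 6.30 in the Trail.mye control segments of all 3 classes.

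Over the comparisons planned, 61 of the 83 genes passed in at least 1, or 73.5% against 24.3% of all genes. Of the 83, 33 passed in the class comparison alone (39.8%, against 12.6% of all genes) and 9 in 3 or more (10.8% against 2.46%). The 22 that passed in none were Cd164, Cd200, Cd200r1, Cd207, Cd209b, Cd209c, Cd247, Cd300c, Cd3e, Cd47, Cd59a, Cd83, Cd86, Cd99l2, Clec11a, Clec14a, Clec16a, Clec2d, Clec3b, Clec9a, Ms4a13 and Ms4a8a. Of these Cd164 was at 20.2 to 84.0 in the paired segments and Clec2d at 5.25 to 52.5, whereas the T cell antigens Cd3e and Cd247 had medians of 4.90 to 5.25 in PanCK and IBA1.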

How the data were processed

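The 38 GeoMx segments were taken with their genotype, diet, location and marker from the sample labels. Per the methods, libraries were amplified for 18 PCR cycles. The submitters' processing notes name bcl2fastq and mm10, and no aligner is named in the sources used here. The authors deposited estimated counts per gene target, all whole except in 3 targets, which were rounded, and the Q3-normalised signal, in which each segment's upper quartile was set to 10.5. Targets had been kept where they passed the limit of quantitation in over 10% of ROIs, per the methods. Total counts and so precision differed widely between segments. The standard errors (SE) given were derived from the edgeR test rather than reported by the fit. Each is the absolute log2 fold change divided by the square root of the F statistic.

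From the deposited counts, edgeR 4.0.16 quasi-likelihood fits in R 4.3.3 tested all 10547 genes with upper-quartile scaling, within class by genotype and diet, within IBA1 by location, and between classes with ROI as a block, at a Benjamini-Hochberg adjusted p under 0.05. Pairing of classes is by design, since both segments come from the same ROI. As a check, deviations from group means over 3089 genes correlated between the paired segments at -0.02 to 0.53, with a median of 0.03. Alternatives were TMM scaling, filterByExpr, counts of 1 set to 0, DESeq2 1.42.0, limma 3.58.1 on log2(Q3 + 1), no ROI block and leaving out each segment. Location within diet and class by diet were added after the data were seen. The members, lists and named-gene rule (called genes, the 12 with the lowest adjusted p in each direction, and fixed antigens) were chosen with earlier results of these data known. The scripts were tested on simulated data. Figures were drawn with matplotlib 3.10.9 in Python 3.11.15, and upstream sequences are those of RefSeq on GRCm38.p6.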

Additional observations from a re-analysis of the deposited data

Results flagged for a closer look

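Within 48 groups of 4 or 5 segments whose values are printed, 5 held a segment far from the others by Dixon's ratio, which chance gives in about 1 of 20 groups. Cd5l in Trail.mye control periportal IBA1 was 93.2 in ROI 028 and 61.3 to 65.7 in the others. In the same ROI, Cd44 in PanCK was 15.8 against 3.50 to 5.25. Clec1b in WT DDC periportal IBA1 was 15.8 in ROI 009 against 3.50 to 5.25 in segments that all stood at a count of 1. Cd9 in Trail.mye DDC periportal IBA1 was 18.6 in ROI 035 against 33.8 to 37.1. Clec2j in WT DDC PanCK was 29.7 in ROI 007 against 7.88 to 8.40.

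The test of the difference itself passed for 5 effects. The location difference of Cd5l changed with diet by -2.61, and the difference between PanCK and periportal IBA1 changed with diet by 2.57 for Cd44, 2.12 for Cd5l, 1.44 for Cd81 and -1.57 for Cd63, all on the log2 scale.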

How the results depend on the processing

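Counts of called genes moved by over 1.5 times in these cases. With filterByExpr, which tested fewer genes, 4 of the 8 genes kept were called between classes, 7 of 15 for diet in parenchymal IBA1, 2 for location by diet and 1 for diet by genotype in PanCK. With TMM, 0 were called for diet in WT periportal IBA1 and 2 for diet in Trail.mye PanCK, and DESeq2 also gave 2 there and 2 for location by diet. With counts of 1 set to 0, 14 were called for diet in Trail.mye periportal IBA1 and 4 in parenchymal IBA1. With limma, 13 were called for diet in Trail.mye periportal IBA1, 10 in WT periportal IBA1, 1 in parenchymal IBA1, 12 for location on DDC, 7 for class by diet and 1 for genotype in DDC-fed periportal IBA1. The causes were not tested.

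Leaving out each segment in turn gave 51 to 57 between classes, 3 to 6 for location, 3 to 9 on DDC, 1 to 2 for location by diet, 1 to 3 for diet in parenchymal IBA1, 0 to 4 in WT PanCK, 2 to 6 in Trail.mye PanCK, 0 to 3 in WT periportal IBA1, 16 to 26 in Trail.mye periportal IBA1, 4 to 6 for class by diet, and 0 to 1 for genotype in DDC-fed PanCK and for diet by genotype in PanCK. Without WT control ROI 003 the WT diet values of Siglec1 and Fcgr3, neither called, turned to 0.40 and 0.68, and without WT DDC ROI 007 that of Fcgr3 to 0.04, within ranges of -3.15 to 0.40 and -0.73 to 0.68. No other named value changed sign. With the ROI as a replicate block 56 genes were called between classes, and 53 without it, all among the 56. Over all genes the median change lay between -0.17 and 0.30 over the comparisons, and between -0.14 and 0.13 with TMM, so small shifts depend on scaling. Depth sets what a count of 1 is worth, 3.50 to 5.25 on the Q3 scale in WT periportal IBA1 segments and 0.198 to 1.75 in those of Trail.mye. The negative probe level also limits what could be measured. It was 4.03 to 6.02 in these WT segments and 1.45 to 5.51 in the Trail.mye ones. The value of 5.51 was that of Trail.mye DDC ROI 035, where a count of 1 is worth 0.198.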
